A study of Mus musculus with 4 samples.

Results

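The stromal-like nuclei described here are the 213 nuclei that the authors' deposited motif table places in cluster 6, out of 7846 kept nuclei of mouse mammary gland. They were split by library into 56 fetal nuclei, 23 in fetal library 1 and 33 in fetal library 2, and 157 adult nuclei, 82 in adult library 1 and 75 in adult library 2. Per the labels the mice were wild-type CD1 animals, an outbred strain, at embryonic day 18 or at 8 weeks of age, with 2 biological replicates at each stage and no treatment or altered allele in any group. Cells of dissected mammary tissue were sorted for the epithelial surface protein EpCAM and against lineage markers, so the nuclei below are those of stromal character that a gate for epithelium still held. Open chromatin was read by single-nucleus ATAC-seq, in which the Tn5 transposase cuts accessible DNA and inserts adapters, and barcodes added in successive rounds mark each nucleus. The labels say neither how many animals or litters made up a library nor when libraries were made, so stage and any batch that runs with it cannot be told apart. Per the labels each fetal library used 16 and each adult library 32 tagmentation wells, so this number ran with stage as well. Both stages had 2000 nuclei per tagmentation well and 768 PCR wells of 20 nuclei.

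Mammary stroma consists mainly of fibroblasts, which make the collagens and other matrix proteins of the gland, together with adipocytes, vessels and immune cells. Before birth the mesenchyme around the epithelial bud directs branching through paracrine signals, and after puberty the fibroblasts surround a ductal tree that responds to ovarian steroids. A fibroblast's open chromatin is shaped by AP-1 (FOS and JUN proteins), nuclear factor I, RUNX proteins and steroid receptors such as the glucocorticoid receptor, all of which bind short DNA motifs.

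The label was checked against lists of marker genes, using reads over each gene's span with 2000 bases added on either side. The 18 fibroblast markers summed to 1996 and 1570 CPM (reads scaled to a common total of reads in each set of nuclei) in the stromal-like nuclei of fetal libraries 1 and 2 and to 2057 and 1835 in adult libraries 1 and 2. In all other nuclei of the same libraries the sums were 480.0, 489.0, 401.9 and 415.8. Of these 18 genes, 17 had their highest level of all 14 clusters in cluster 6. As the cluster was built from these same nuclei, this is a description and not a test. The 15 epithelial markers summed to 152, 262, 135 and 299 CPM in stromal-like nuclei of fetal libraries 1 and 2 and adult libraries 1 and 2, against 1288 to 1529 in the other nuclei. The keratin gene Krt5 had 0 reads in all 4 libraries, Krt14 had 2 reads, both in adult library 1, and Epcam, the gene of the sorting marker, had 0, 6, 4 and 10 reads.

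**Figure D1:**
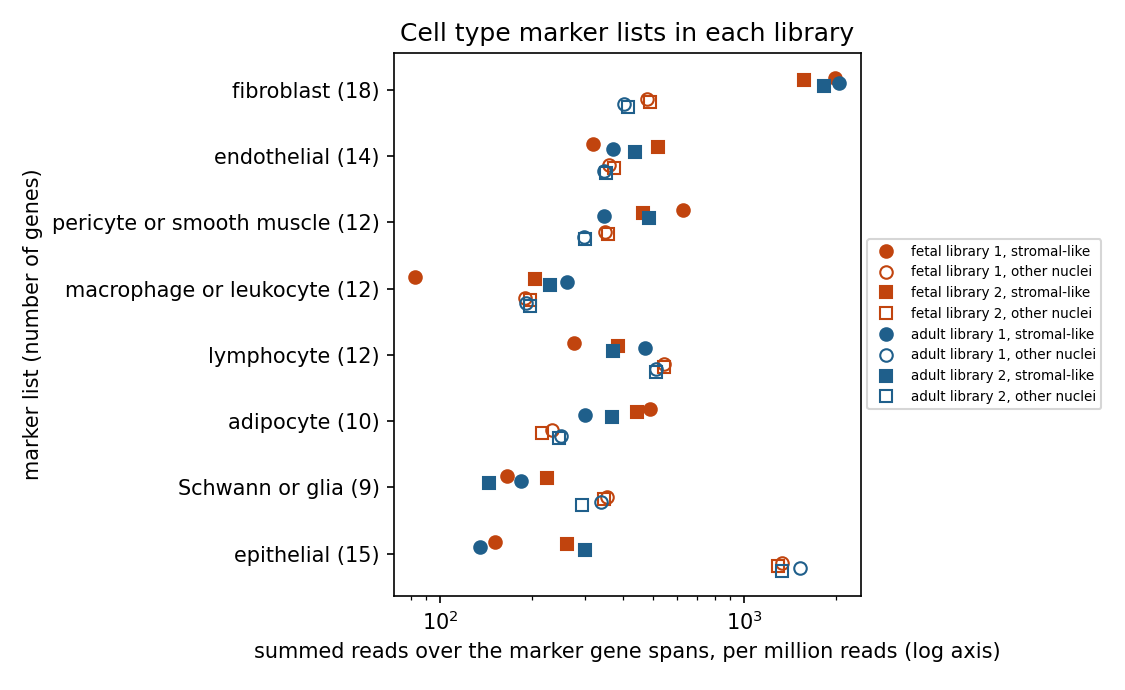
Summed reads over marker gene spans as CPM (log axis), for 8 cell type lists. Filled symbols are stromal-like nuclei, open symbols all other nuclei, orange is fetal and blue is adult, with 1 symbol per library. The fibroblast sums of stromal-like nuclei lie between 1570 and 2057 and the epithelial sums between 135 and 299.

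Marker lists of other stromal types hold fewer genes, and their sums were lower than the fibroblast sum and varied between libraries. Over other nuclei, the mean sum was 4.17 times as high for fibroblast, 1.70 for adipocyte and 1.48 for pericyte or smooth muscle markers. It was 1.15 for endothelial and 1.00 for leukocyte markers. These last 3 lists had a higher sum in another cluster than in cluster 6 (497 against 456, 439 against 427 and 230 against 219). Pericyte or smooth muscle markers summed to 547 ± 116 (SD, n = 2) CPM in fetal and 417 ± 101 in adult stromal-like nuclei, and adipocyte markers to 467 ± 32.3 and 335 ± 48.0 in the same order. The adipocyte sums, which include the reads of Pparg, did not overlap between stages. Macrophage or leukocyte markers reached 82.9 and 205 in fetal and 260 and 230 in adult libraries, also without overlap. These sums rest on few reads: only 3 of the 12 genes averaged 10 or more reads per library. The lowest sum was that of fetal library 1, which had the fewest reads in stromal-like nuclei (144798). In the other nuclei they reached 191 and 198 in fetal and 191 and 197 in adult libraries. Endothelial sums of 318 to 522 overlapped. Lymphocyte and Schwann cell sums were lower in stromal-like than in other nuclei in every library. All these comparisons also depend on how open the listed genes are in the other nuclei, so they do not measure a share of cells. Of the 213 nuclei, 12 had more epithelial than fibroblast reads (0 and 2 in the fetal libraries, 4 and 6 in the adult libraries), and 28 had no fibroblast read. The 12 were left out in an alternative fit, given below for gene spans and for the called distal region. The 28 without a fibroblast read were not left out as a group in any fit.

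Stromal-like nuclei made up 2.61% of kept nuclei in fetal library 1 (95% exact Clopper-Pearson interval 1.66 to 3.89), 1.95% in fetal library 2 (1.34 to 2.72), 3.33% in adult library 1 (2.65 to 4.11) and 2.67% in adult library 2 (2.11 to 3.34). Both fetal shares lay below both adult shares, but fetal library 1 and adult library 2 differed by less than their counting error. The fetal share was 2.28% ± 0.467 (SD, n = 2) and the adult share 3.00% ± 0.461, and a two-sided exact permutation test gave p = 0.33, the smallest p that 2 against 2 libraries allow. These shares describe what passed an EpCAM gate, not the tissue.

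The stromal-like nuclei held 144798 and 350874 reads in fetal libraries 1 and 2 and 422477 and 578132 reads in adult libraries 1 and 2. Their median depth was 4922, 8066, 4482.5 and 6045 reads per nucleus, and no barcode was shared between libraries. Fetal library 1 had the fewest nuclei and reads. Promoter regions held 22.6 to 26.4% of the reads. Distal regions held 30.5% and 29.7% of fetal reads and 33.6% and 33.5% of adult reads, and the part of that difference in the results below was not tested.

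Most of the called stage differences were in motif scores. A motif score is the authors' deposited chromVAR deviation, a relative value centred near 0. It is higher in nuclei with more reads in accessible regions with the motif than the average over nuclei predicts, corrected by matched regions. A score above or below 0 is thus relative to the pool of nuclei, 7633 of 7846 of which are not stromal-like. Scores were averaged over the stromal-like nuclei of each library and compared with limma. Of 427 motifs, 4 were higher in fetal nuclei (0.937% of those tested) and 21 were higher in adult nuclei (4.92%) at a Benjamini-Hochberg adjusted p under 0.05. The 21 motifs higher in adult nuclei were 3 of 5 listed steroid receptor motifs, 7 of 16 AP-1 and related motifs, all 3 RUNX motifs and 8 motifs of other nuclear receptors. Fetal nuclei had higher scores for Nfix, Msc, Zfp637 and Nfya. In 10 alternative settings the differences of Msc, Zfp637 and Nfya kept their sign, at 0.43 to 1.01, 0.53 to 0.92 and 0.51 to 0.77. Their calls were lost in most of these settings, which include fits without 1 library.

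Pgr, the progesterone receptor, had the largest difference. Its mean score was -0.70 and -0.44 in fetal libraries 1 and 2 and 0.63 and 1.18 in adult libraries 1 and 2. The fetal libraries lay below 0 and the adult libraries above it. The fetal mean was lower by 1.47 (fetal minus adult -1.47, SE 0.193, n = 2 and 2, limma adjusted p = 0.00109). Among single nuclei the Pgr score was above 0 in 4 of 23 nuclei of fetal library 1 (17.4%, exact interval 4.95 to 38.8), in 13 of 33 of fetal library 2 (39.4%, 22.9 to 57.9), in 56 of 82 of adult library 1 (68.3%, 57.1 to 78.1) and in 62 of 75 of adult library 2 (82.7%, 72.2 to 90.4). The interquartile range of single-nucleus Pgr scores was -1.36 to -0.21 in fetal library 1, -1.29 to 0.62 in fetal library 2, -0.25 to 1.47 in adult library 1 and 0.20 to 2.14 in adult library 2. The ranges of fetal library 1 and adult library 2 did not overlap, and that of fetal library 2 overlapped both adult ranges.

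Nr3c1, the glucocorticoid receptor, whose motif is close to that of Pgr, scored -1.05 and -0.35 in the fetal and 0.41 and 0.68 in the adult libraries. Its stage difference was -1.25 (SE 0.210, limma adjusted p = 0.00396). Esr1, the estrogen receptor, scored -0.13 and 0.05 against 0.90 and 0.83, a difference of -0.90 (SE 0.159, adjusted p = 0.00433). Of the 5 steroid receptor motifs in the table, these 3 were called. The mineralocorticoid receptor Nr3c2 scored -0.08 and -0.16 in fetal against 0.07 and 0.35 in adult libraries. It did not pass (limma adjusted p = 0.276), and its fetal libraries lay below the adult ones. Fetal libraries lay below adult libraries, without overlap, in 32.1% of all motifs.

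AP-1 motifs bind FOS, JUN and related leucine zipper proteins and are a common feature of accessible enhancers in fibroblasts. Of 16 AP-1 and related motifs in the table, 7 were called, all lower in fetal nuclei, and the median difference of the 16 was -0.54 against -0.069 for all 427 motifs. Smarcc1, a subunit of the BAF remodelling complex whose listed motif resembles that of AP-1, scored -0.46 and -1.09 in fetal and 0.27 and 1.08 in adult libraries (difference -1.45, SE 0.249, adjusted p = 0.00396). Fos scored -0.14 and -1.09 against 0.19 and 1.17 (difference -1.30, SE 0.302, adjusted p = 0.0215). The 2 libraries of a stage were nearly 1 unit apart for Fos, so that fetal library 1 and adult library 1 differed by less than the libraries within either stage. Bach1 (-1.17), Nfe2l2 (-1.15), Bach2 (-1.01), Fosb (-0.98) and Junb (-0.91) differed in the same direction, with adjusted p from 0.00297 to 0.0113. Nfe2l2, the activator of antioxidant genes also called NRF2, had the tightest fetal values of these, -0.58 and -0.64. Jun, Fosl2 and Atf3, of the same family, had differences of -0.15, -0.01 and -0.27 and did not pass.

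RUNX proteins are regulators of mesenchymal differentiation. All 3 listed RUNX motifs were called and lower in fetal nuclei. Runx1 and Runx3 share identical values in the table and scored -1.23 and -1.06 in fetal and -0.11 and -0.38 in adult libraries (difference -0.90, SE 0.166, adjusted p = 0.00516), and Runx2 differed by -0.72 (adjusted p = 0.0228). The other 8 called motifs with lower fetal scores belong to retinoic acid receptors and other nuclear receptors, a grouping made after their values were seen. Nr1h5 had scores of 0.17 and 0.16 against 0.95 and 0.95 (difference -0.78, adjusted p = 0.00688). Rora (-0.75), Rarg (-0.68), Rarb (-0.66), Nr2f1 (-0.65), Esrrg (-0.63), Esrra (-0.62) and Nr2c1 (-0.57) followed, all without overlap between stages. Related motifs that did not pass included Rxrb, Rara, Nr4a3, Nr2f2 and Nr2c2 (limma adjusted p = 0.0726, 0.107, 0.120, 0.124 and 0.791).

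Nfix, a nuclear factor I protein, led the motifs with higher fetal scores. It scored -0.62 and -0.78 in fetal and -1.55 and -1.83 in adult libraries, so that all libraries were below 0 and the fetal ones less so. The difference was 0.99 (SE 0.167, adjusted p = 0.00396). The score was above 0 in 8 of 23 and 7 of 33 fetal nuclei but in only 4 of 82 and 4 of 75 adult nuclei. The other nuclear factor I motifs, Nfia and Nfib with identical values and Nfic, had differences of 0.23 and 0.48 and did not pass. Msc, a basic helix-loop-helix repressor, scored 0.73 and 1.20 against 0.25 and 0.34 (difference 0.67, adjusted p = 0.0423). It was the only call among 11 tested helix-loop-helix, Snai and Zeb motifs listed for mesenchyme, whose median difference was -0.43. At an unadjusted limma p under 0.05, 2 of the 11 were higher and 5 lower in fetal nuclei. Zfp637 scored 0.08 and 0.17 against -0.40 and -0.65 (difference 0.65, adjusted p = 0.0295). Nfya, a subunit of the CCAAT-binding factor NF-Y, scored 1.77 and 2.03 against 1.24 and 1.27 (difference 0.64, adjusted p = 0.0295). None of 12 SOX motifs was called by limma, at an unadjusted p under 0.05 for 8 of them; in 10 of the 12 the fetal libraries lay above the adult ones, against 18.5% of all motifs, and their median difference was 0.42.

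**Figure D2:**
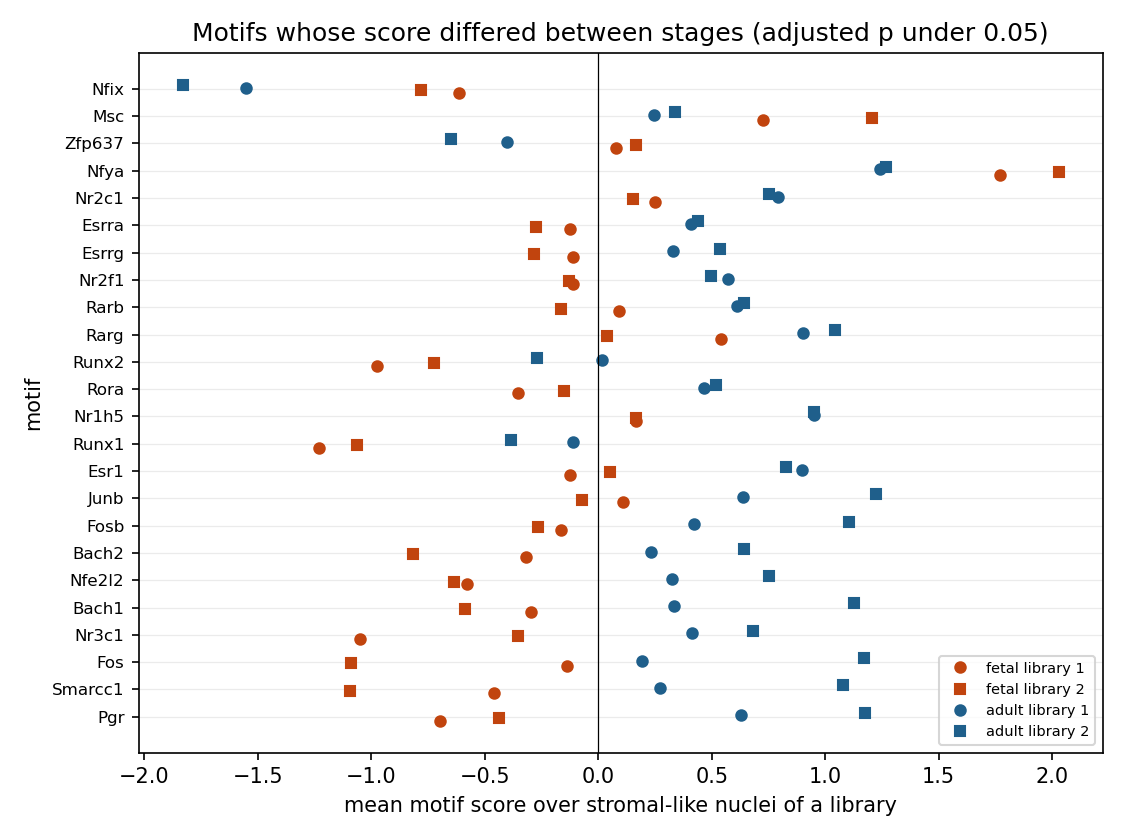
Mean motif score of stromal-like nuclei in each library (x axis) for the called motifs, with motifs of identical values drawn once, ordered by stage difference. Orange is fetal, blue is adult, circles are library 1 and squares library 2. The top 4 motifs have higher fetal scores, and from Pgr at the bottom, with -0.70 and -0.44 against 0.63 and 1.18, to Nr2c1 the fetal scores are lower.

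Leaving out 1 library leaves 1 sample at that stage, which is assumed to vary like the libraries of the other stage. In such fits 8 of the 25 motifs remained called without adult library 1, and 0 without fetal library 1, fetal library 2 or adult library 2, with 109, 99 and 44 motifs at an unadjusted p under 0.05. The differences of the leading motifs kept their direction, from -1.74 to -1.20 for Pgr, -1.36 to -0.93 for Nfe2l2 and 0.85 to 1.13 for Nfix. Over all 10 alternative settings Smarcc1 ranged from -2.34 to -1.05 and Fos from -2.11 to -0.81. Bach1 ranged from -1.99 to -0.78 and Fosb from -1.60 to -0.64 in these settings. Without the deepest 10% of nuclei in each library only Pgr remained called (adjusted p = 0.0361, difference -1.42), with 71 motifs at an unadjusted p under 0.05; deposited scores could not be thinned to a common depth.

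Of the genes that encode these factors, none had a span that was called. The Pgr span held 4 and 10 reads in fetal and 22 and 38 in adult stromal-like nuclei (log2 fold change, fetal over adult, -0.98, SE 0.589, edgeR adjusted p = 0.667). Nr3c1 held 16, 38, 53 and 71 reads (-0.10, SE 0.380, adjusted p = 0.963). For Esr1 the reads were 39 and 76 against 39 and 105, a log2 fold change of 0.86 (SE 0.342, adjusted p = 0.43), so the span leaned to fetal nuclei and the motif to adult ones. Rora leaned to adult nuclei in both (span -0.77, SE 0.258, adjusted p = 0.309). Nfix had 43 and 124 against 106 and 177 reads (0.32, SE 0.253, adjusted p = 0.783), and Runx1 and Runx2 had span values of 0.18 and 0.32 that did not pass.

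At the level of gene spans few genes differed. Reads over each gene with 2000 bases on either side were summed per library, and 9812 of 21886 genes averaged 10 or more reads per library, the minimum for a test. In edgeR's quasi-likelihood test 5 spans, or 0.0510% of those tested, passed an adjusted p under 0.05, and all 5 were higher in fetal nuclei. They were Rtl1, Ptprn2, Sema5b, Thbs1 and Nav3, each with an adjusted p of 0.0450. For higher adult levels the count was 0, with 417 spans at an unadjusted p under 0.05 and 5 called by DESeq2. The median log2 fold change of all tested spans was -0.0053. Levels below are CPM over the reads in tested spans, scaled by TMM. For a stage difference of a span or region, the printed SE is the larger of the SE from the F statistic and that of counting alone. For a gene-span interaction, given further below, it is the SE from the F statistic only.

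Sema5b encodes a transmembrane semaphorin that guides axons and other growing structures. It held 37 and 72 reads in fetal libraries 1 and 2 and 10 and 44 reads in adult libraries 1 and 2. Its level was 357 ± 52.0 (SD, n = 2) in fetal and 74.1 ± 57.3 in adult nuclei, with no overlap (log2 fold change 2.20, SE 0.429, edgeR adjusted p = 0.0450). The adult libraries differed from each other by more than the fetal ones. Over 15 alternative settings the log2 fold change of Sema5b ranged from 1.61 to 3.36. Reads came from 24 of 56 fetal and 19 of 157 adult nuclei. Promoter regions inside the span held 28 of 109 fetal and 6 of 54 adult reads.

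Thbs1 encodes thrombospondin 1, a matrix glycoprotein that binds and activates latent TGF-beta. It held 63 and 91 reads against 38 and 77, and its level was 537 ± 188 in fetal and 164 ± 51.6 in adult nuclei (log2 fold change 1.66, SE 0.320, adjusted p = 0.0450). The fetal reads came from 33 of 56 nuclei and the adult reads from 34 of 157, and 61.0% of fetal reads lay outside any listed promoter or distal region. Nav3, a neuron navigator protein of the microtubule cytoskeleton, held 59 and 152 reads against 73 and 111 (level 652 ± 34.0 against 267 ± 31.0, log2 fold change 1.29, SE 0.251, adjusted p = 0.0450). Reads came from 37 of 56 fetal and 51 of 157 adult nuclei. In Nav3, too, most reads lay outside listed regions, 74.4% of fetal and 71.7% of adult reads.

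Ptprn2 encodes a receptor-type tyrosine phosphatase of secretory vesicles. It held 27 and 53 reads against 11 and 21 (level 261 ± 36.5 against 45.8 ± 12.5, log2 fold change 2.46, SE 0.440, adjusted p = 0.0450), and its span of 792 kb also holds 6 other annotated genes, among them Mir153. Rtl1 is an imprinted gene of retrotransposon origin in the Dlk1-Dio3 cluster on chromosome 12. With 12 and 39 reads against 6 and 6 it lay under the mean of 20 reads set for naming a gene, and it is named because only 5 spans were called (log2 fold change 3.09, SE 0.588, adjusted p = 0.0450). Its span overlaps the ends of Meg3 and Rian and holds 16 annotated miRNA genes, so its reads cannot be given to Rtl1 alone. Its neighbours held few reads: Dlk1 had 2 and 17 in fetal and 2 and 6 in adult libraries, Meg3 had 6 and 22 against 8 and 10, Rian had 6 and 19 against 4 and 10, and Dio3 had 0 and 2 against 0 and 2. Of these neighbours only Meg3 reached the minimum for a test (log2 fold change 1.65, SE 0.687, adjusted p = 0.457).

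The spans with the smallest p among those with higher adult levels did not pass. Adgrd1, an adhesion G-protein coupled receptor, held 12 and 14 reads in fetal and 99 and 136 in adult libraries (log2 fold change -1.99, SE 0.401, edgeR adjusted p = 0.0524). Irak3, an inhibitor of Toll-like receptor signalling, held 11 and 13 against 92 and 131 (-2.03, SE 0.412, adjusted p = 0.0524). Sdc4, a heparan sulfate proteoglycan of focal adhesions, held 8 and 20 against 115 and 100, Capzb, an actin capping subunit, 16 and 38 against 119 and 204, and Ackr3, a scavenger receptor of the chemokine Cxcl12, 0 and 8 against 65 and 53; their adjusted p was 0.0699. In all 5 the fetal and adult levels did not overlap, which held for 21.0% of all tested spans in this direction and for 19.5% in the other.

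**Figure D3:**
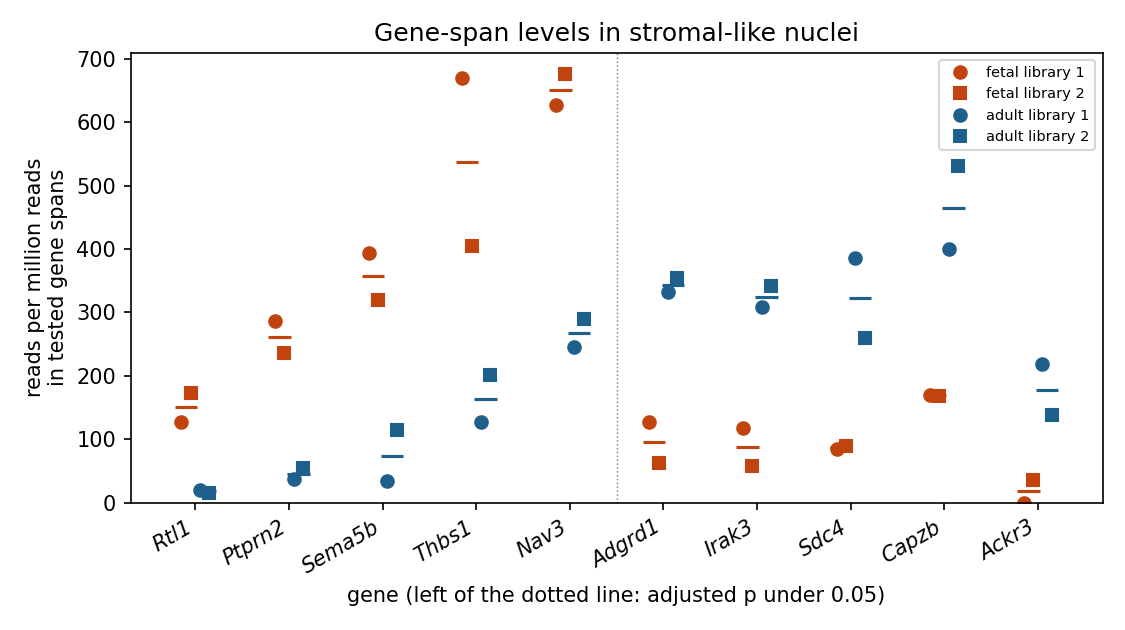
Level of each gene span in stromal-like nuclei, in CPM over the reads in tested spans, for the 5 called genes (left of the dotted line) and the 5 with the smallest p among those higher in adult nuclei. Symbols are single libraries and bars are stage means. The levels of the stages do not overlap in any of the 10 genes.

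**Figure D4:**
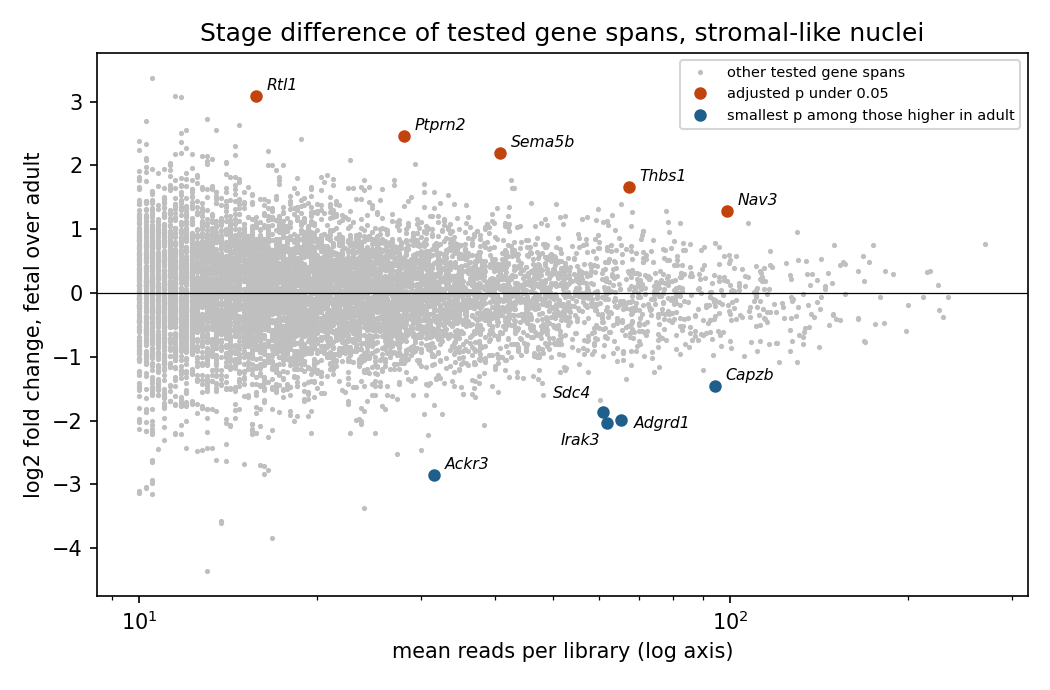
Log2 fold change, fetal over adult, of 9812 tested gene spans against their mean reads per library (log axis). The 5 called spans, from Rtl1 at 3.09 to Nav3 at 1.29, are orange, and the 5 spans with the smallest p on the adult side, from Capzb at -1.46 to Ackr3 at -2.86, are blue.

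These 5 calls were close to the threshold. No span was called with scaling by total reads, a minimum mean of 20 reads, nuclei thinned to 2000 reads or the gene start only, with 886, 515, 168 and 235 spans at an unadjusted p under 0.05. With no filter on low counts 34 were called, 18 toward fetal and 16 toward adult nuclei, and DESeq2 called 19, 14 and 5 in the same order. Without the 12 nuclei that had more epithelial than fibroblast reads 0 spans were called (852 at an unadjusted p under 0.05), with adjusted p of 0.0551 for Rtl1, Ptprn2, Sema5b and Thbs1 and 0.0682 for Nav3, and log2 fold changes of 2.98, 2.34, 2.13, 1.61 and 1.19. The count was 72 without fetal library 1, 183 without fetal library 2, 6 without adult library 1 and 14 without adult library 2, of which 4, 4, 0 and 4 were among the 5.

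Promoter sequences were taken from RefSeq (GRCm38.p6, 250 bases before to 50 after the gene start), where 2 of the 5 called genes, Sema5b and Ptprn2, had an entry. They are shown beside the promoters of Cmip and Hmgn1, whose promoter regions had the smallest p of the promoter test below, to set promoters that leaned to fetal nuclei beside promoters that leaned to adult ones. The 5 motifs searched, on both strands and shown in capitals, correspond to factors named above: TGANTCA for AP-1, AGAACA for a steroid receptor half-site, CCAAT for NF-Y, TGTGGT for RUNX and TTGGCA for a nuclear factor I half-site. The reverse of CCAAT can share bases with TTGGCA.
Sema5b, chr16:35541112-35541411, plus strand: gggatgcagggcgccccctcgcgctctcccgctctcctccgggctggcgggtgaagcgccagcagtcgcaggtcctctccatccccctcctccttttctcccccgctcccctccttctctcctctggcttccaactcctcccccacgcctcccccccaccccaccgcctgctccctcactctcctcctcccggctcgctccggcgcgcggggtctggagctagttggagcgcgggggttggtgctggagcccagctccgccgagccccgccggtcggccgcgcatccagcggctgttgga
Ptprn2, chr12:116485470-116485769, plus strand: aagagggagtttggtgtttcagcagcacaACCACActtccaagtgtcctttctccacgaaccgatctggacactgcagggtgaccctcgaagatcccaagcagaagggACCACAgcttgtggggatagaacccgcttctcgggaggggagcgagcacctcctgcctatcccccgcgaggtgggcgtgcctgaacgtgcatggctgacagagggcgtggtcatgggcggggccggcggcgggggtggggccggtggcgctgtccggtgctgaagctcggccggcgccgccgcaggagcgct
Cmip, chr8:117256769-117257068, plus strand: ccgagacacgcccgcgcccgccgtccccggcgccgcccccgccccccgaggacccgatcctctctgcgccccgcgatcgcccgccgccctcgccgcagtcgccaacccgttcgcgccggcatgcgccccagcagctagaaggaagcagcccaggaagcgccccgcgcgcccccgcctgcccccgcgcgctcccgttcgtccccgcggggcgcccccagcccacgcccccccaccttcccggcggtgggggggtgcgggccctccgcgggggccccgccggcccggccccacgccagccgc
Hmgn1, chr16:96127676-96127975, minus strand: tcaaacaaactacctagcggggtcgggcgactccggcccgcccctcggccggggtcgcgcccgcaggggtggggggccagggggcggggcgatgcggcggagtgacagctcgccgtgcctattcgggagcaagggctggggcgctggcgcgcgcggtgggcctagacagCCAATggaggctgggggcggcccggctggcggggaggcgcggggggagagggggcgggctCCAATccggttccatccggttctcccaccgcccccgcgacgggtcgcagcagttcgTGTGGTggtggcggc

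The Sema5b window held 2 and 18 reads in fetal and 0 and 2 in adult stromal-like nuclei and none of the 5 motifs. The Ptprn2 window held 2 and 1 against 0 and 0 reads and had 2 RUNX matches, both on the reverse strand. The Cmip window, 83.7% G and C, held 0 and 0 against 8 and 7 reads and had no match. The Hmgn1 window held 2 and 3 against 32 and 18 reads and had 2 NF-Y matches and 1 RUNX match. Of 32544 distinct promoter windows in the table, 37.4% hold CCAAT, 18.9% AGAACA, 16.7% TGTGGT, 14.1% TTGGCA and 7.79% TGANTCA, so matches of these kinds are common. A match describes the letters and not a bound site.

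Single regions were tested as listed by the authors, each 1000 bases wide. Of 145453 distal regions 851 reached a mean of 10 reads per library, and 1 of them (0.118%) was called, higher in fetal nuclei. It lies at chr6:141041627-141042626 (mm10), between genes and 206643 bases from Pde3a, a phosphodiesterase of cyclic nucleotides. It held 14 and 23 reads in fetal and 4 and 9 in adult libraries (log2 fold change 2.82, SE 0.643, edgeR adjusted p = 0.0365). No distal region was called as higher in adult nuclei, with 43 at an unadjusted p under 0.05 and 0 by DESeq2. A distal region at chr10:22875026-22876025, 54883 bases from Tcf21, a transcription factor of fibroblast precursors, held 0 and 0 against 23 and 19 reads and did not pass (adjusted p = 0.197). The call at chr6 was lost without fetal library 1, adult library 1 or adult library 2 (adjusted p from 0.0554 to 0.65), in DESeq2 (0.608) and without the 12 nuclei richer in epithelial reads (0.0726), with log2 fold changes of 2.46 to 3.36 in these fits. Without fetal library 2 the region was under the minimum for a test.

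Of 19204 distinct promoter regions 2960 were tested and 0 were called by edgeR (0%), with 137 at an unadjusted p under 0.05 and 0 called by DESeq2. The 5 with the smallest p were all higher in adult nuclei. The region at the start of Cmip, an adaptor protein, at chr8:117256028-117257027 held 0 and 0 against 17 and 28 reads (adjusted p = 0.637). At Hmgn1, a nucleosome-binding protein, chr16:96127226-96128225 held 2 and 5 against 55 and 23 reads. At Txnrd1, the cytosolic thioredoxin reductase, chr10:82858451-82859450 held 2 and 2 against 30 and 31. At Rnf2, the ubiquitin ligase of Polycomb complex PRC1, chr1:151500333-151501332 held 0 and 4 against 28 and 31, and at Cdc27, a subunit of the anaphase-promoting complex, chr11:104549979-104550978 held 0 and 1 against 17 and 22. The adjusted p of these 4 was 0.752.

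Groups of genes known in mammary stroma were described by their counts, given as members whose fetal and adult levels did not overlap. Only Thbs1 among the listed genes was called. Of all tested spans, 19.5% had both fetal levels above both adult ones, and 21.0% the reverse. Of 24 collagen genes 22 were tested, 9 (40.9%, against 19.5% of all spans) were higher in fetal nuclei without overlap and 2 (9.09%, against 21.0%) higher in adult nuclei, and the median log2 fold change was 0.25. The fibrillar collagens of mature stroma overlapped between stages: Col1a1 held 21 and 31 reads against 49 and 33 (log2 fold change 0.48, SE 0.438), Col1a2 held 16 and 28 against 37 and 56 (0.07, SE 0.420), and Col3a1 held 10 and 44 against 43 and 42 (0.34, SE 0.423). Larger values, none of which passed, were those of Col24a1 (38 and 66 against 40 and 62 reads, 1.20, SE 0.343, adjusted p = 0.208) and Col23a1 (30 and 135 against 67 and 82, 1.12, SE 0.305, adjusted p = 0.187). Col6a3 leaned to adult nuclei (-0.51, SE 0.400), as did Col4a2 of basement membranes (43 and 102 against 182 and 260 reads, -0.50, SE 0.229, adjusted p = 0.505).

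Of 43 other matrix genes 32 were tested, 7 (21.9%) were higher in fetal nuclei without overlap and 9 (28.1%) were higher in adult nuclei, near the 19.5% and 21.0% of all spans, with a median of -0.22. Fbn2, the fibrillin of embryonic microfibrils, held 30 and 46 reads in fetal and 28 and 13 in adult libraries (log2 fold change 2.02, SE 0.468, adjusted p = 0.0831). Its relative Fbn1, the main fibrillin of adult tissue, leaned the other way, with 39 and 90 against 176 and 230 reads (-0.55, SE 0.238, adjusted p = 0.479). Eln, elastin, had 6 and 10 against 47 and 47 (-1.43, SE 0.514, adjusted p = 0.357), and Mfap5, a microfibril glycoprotein, had 2 and 2 against 22 and 38 (-2.70, SE 0.795, adjusted p = 0.223). Tnxb, a tenascin of adult connective tissue, held 10 and 28 against 76 and 116 (-1.25, SE 0.378, adjusted p = 0.244), and Tnc, the tenascin of embryonic mesenchyme, held 10 and 72 against 19 and 42 (1.39, SE 0.453, adjusted p = 0.295). Tnc levels overlapped between stages, and 42 of its 72 reads in fetal library 2 came from 1 nucleus. Fn1, fibronectin, held 16 and 28 against 26 and 35 (0.67, SE 0.446), and Postn, periostin, 10 and 36 against 22 and 51 (0.41, SE 0.450). The proteoglycan gene Dcn, decorin, held 4 and 16 against 41 and 34 (-0.89, SE 0.529, adjusted p = 0.664).

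Of 48 paracrine signal genes 37 were tested, 7 of them (18.9%) without overlap in each direction, near the 19.5% and 21.0% of all spans, and they had a median of 0.06. Igf2, an imprinted fetal growth factor, held 14 and 23 reads in fetal and 9 and 0 in adult libraries (log2 fold change 3.09, SE 0.821, adjusted p = 0.172). Igf1 held 9 and 23 against 26 and 40 (0.05, SE 0.475). Fgf10, a signal from mesenchyme to the epithelial bud, held 2 and 8 against 8 and 28 (-0.73, SE 0.802), and both libraries of a stage differed widely. Pdgfa (12 and 18 against 12 and 12, 1.48, SE 0.609) and Sema3a (17 and 64 against 28 and 50, 1.09, SE 0.394) leaned to fetal nuclei without passing. Of 45 receptor genes 43 were tested and 11 and 10 (25.6% and 23.3%, near the 19.5% and 21.0% of all spans) did not overlap, in the fetal and the adult direction. Egfr held 28 and 59 against 146 and 210 reads (-0.91, SE 0.270, adjusted p = 0.224), Il6st, the shared receptor of the interleukin 6 family, 4 and 16 against 47 and 69 (-1.47, SE 0.473, adjusted p = 0.281), and Pdgfra, a marker of fibroblasts and their precursors, 12 and 30 against 28 and 56 (0.12, SE 0.436). Pdgfrb held 18 and 18 against 38 and 72 (-0.36, SE 0.455).

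Among mesenchymal transcription factors 50 of 58 genes were tested, 20 (40%, against 19.5% of all spans) were higher in fetal nuclei without overlap and 6 (12%, against 21.0%) were higher in adult nuclei, and the median was 0.32. Twist2, a helix-loop-helix factor of dermal fibroblasts, held 34 and 46 reads against 40 and 74 (0.72, SE 0.374, adjusted p = 0.606) and Twist1 held 14 and 24 against 24 and 48 (0.25, SE 0.458). Tead1, a DNA-binding partner of YAP, held 47 and 122 against 85 and 123 (0.79, SE 0.260, adjusted p = 0.305). Ebf1 held 64 and 176 against 149 and 223 (0.44, SE 0.215) and Ebf2 35 and 95 against 105 and 166 (0.03, SE 0.266). Prrx1, a homeobox factor of limb and skin mesenchyme, held 21 and 40 against 57 and 52 (0.27, SE 0.386), and Nfib held 47 and 82 against 76 and 120 (0.57, SE 0.287). Klf4 and Zeb2 leaned to adult nuclei (-1.26, SE 0.442, adjusted p = 0.343, and -0.63, SE 0.308, adjusted p = 0.567). Tcf21 held 0 and 2 against 6 and 2 reads and was not tested. Vim, the intermediate filament of mesenchymal cells, held 36 and 35 against 68 and 55 (0.44, SE 0.403).

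Other groups had few tested members, and their counts without overlap stand beside 19.5% (fetal higher) and 21.0% (adult higher) of all spans. Of 18 imprinted or oncofetal genes 10 were tested, 5 (50%) were higher in fetal nuclei without overlap and 1 (10%) in adult nuclei, with a median of 0.50. Of 12 SOX genes 7 were tested, 3 (42.9%) were higher in fetal and 1 (14.3%) in adult nuclei without overlap. Sox11, with the highest value of these, held 16 and 21 against 4 and 6 reads (3.07, SE 0.684, adjusted p = 0.0724). Immune defence genes had 14 of 25 tested, none higher without overlap in fetal nuclei and 4 in adult nuclei (28.6%, near the 21.0% of all spans). Leukocyte marker sums, which rest on few reads, were higher in adult libraries, as given above. Their mean over libraries was 1.00 times that of other nuclei. The part of leukocytes in the immune defence counts was not tested. Of 20 adipogenic genes 17 were tested, 3 (17.6%) were higher in fetal and 5 (29.4%) in adult nuclei without overlap, and the median was -0.075. Pparg, the master regulator of adipocytes, had the highest value of the list and held 30 and 64 against 30 and 67 (1.10, SE 0.367, adjusted p = 0.305). Adipocyte marker sums were higher in fetal libraries, as given above. Pparg is itself 1 of those 10 markers, so the sums hold its reads and are no separate measure. Of 19 cell cycle genes 11 were tested, 4 (36.4%) higher in fetal and 1 (9.09%) in adult nuclei without overlap. Of genes that mark other cell types, Pecam1 of endothelium held 4 and 31 against 39 and 25 reads (0.06, SE 0.518), Kdr 0 and 10 against 2 and 15, and Ptprc of leukocytes 2 and 5 against 11 and 6.

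The stage difference in stromal-like nuclei was then set against that in the 7633 other nuclei, which carry the epithelial markers given above and whose mix of clusters differs between stages. Stromal-like and other nuclei of the same library were kept as a pair. For gene spans 0 of 9812 interactions were called by edgeR (0%), with 915 at an unadjusted p under 0.05 and 0 called by DESeq2. Thbs1 was also higher at the fetal stage in the other nuclei, with a log2 fold change of 1.49 there (edgeR adjusted p = 8.62e-05) against 1.66 in stromal-like nuclei (difference 0.14, SE 0.323, adjusted p = 0.928). For Rtl1 the values were 1.52 and 3.09 (difference 1.57, SE 0.792, adjusted p = 0.559), and for Sema5b 0.81 and 2.20 (difference 1.46, SE 0.468, adjusted p = 0.264). For Nav3 they were -0.02 and 1.29, and this difference of 1.27 (SE 0.287) did not pass either (adjusted p = 0.0839). For Ptprn2 they were 0.78 and 2.46 (difference 1.67, SE 0.406, adjusted p = 0.115).

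The 5 smallest interaction p-values belonged to Il20rb, St6gal1, Gsr, Plce1 and Peli2, with adjusted p of 0.0510, or 0.0514 for Peli2. Gsr, glutathione reductase, was 1.43 higher on the log2 scale in fetal than in adult stromal-like nuclei and -1.37 in the other nuclei. St6gal1, a sialyltransferase, was at -1.03 in stromal-like and 0.93 in other nuclei. Il20rb, an interleukin receptor chain with 1 fetal and 51 adult reads, was at -4.36 and 0.90, Plce1, a phospholipase C, at -1.60 and 0.48, and Peli2, a ubiquitin ligase, at -0.93 and 0.94. Without fetal library 1 the count of called interactions was 105, without fetal library 2 it was 44, and without adult library 2 it was 1.

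For motif scores 85 interactions were called by limma. In 51 motifs (11.9%) the fetal minus adult difference was higher in stromal-like than in other nuclei, and in 34 (7.96%) it was lower. In 76 of the 85 the difference was smaller in size in stromal-like nuclei. Foxa1, a pioneer factor of luminal epithelium, showed the largest interaction against all other nuclei. In other nuclei it scored -1.56 and -2.00 in fetal and 1.01 and 0.87 in adult libraries, a difference of -2.72, while in stromal-like nuclei it scored -1.05 and -1.86 against -1.13 and -1.46, a difference of -0.16 (interaction 2.57, SE 0.174, adjusted p = 5.99e-05). Stromal-like nuclei were thus low for Foxa1 at both stages. Among forkhead motifs Foxa3 (interaction 1.93) and Foxc1 (1.89) came next, and all 14 listed forkhead motifs in the table, 11 of them with distinct values, were called in this direction. Smarcc1 and Fos, whose interactions changed sign against basal-like nuclei alone, had differences of -3.56 and -3.38 in other nuclei and -1.45 and -1.30 in stromal-like nuclei (interactions 2.11 and 2.08, adjusted p = 0.000464 and 0.00175).

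In the opposite direction, the stage differences of Sox4 (1.68), Sox9 (1.75) and Nfix (2.42) in other nuclei were larger than those in stromal-like nuclei (0.25, 0.36 and 0.99), with interactions of -1.43, -1.39 and -1.42. Sox9 is a regulator of mammary stem and progenitor cells, and its motif scored -1.12 and -0.85 in fetal and -1.35 and -1.34 in adult stromal-like nuclei. Pgr and Nr3c1 were of the other kind: their stage difference was larger in stromal-like nuclei. Pgr differed by -0.23 in other nuclei and by -1.47 in stromal-like nuclei (interaction -1.24, SE 0.201, adjusted p = 0.00224), and Nr3c1 by -0.21 and -1.25 (interaction -1.04, SE 0.224, adjusted p = 0.0101). Esr1 had differences of -1.04 in other and -0.90 in stromal-like nuclei (interaction 0.14, SE 0.168, adjusted p = 0.583), and Runx1 of -0.71 and -0.90 (interaction -0.19, SE 0.175, adjusted p = 0.477).

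Against the basal-like clusters 1, 4 and 8 alone, 1536 nuclei in all, 0 of the 427 interactions were called, with 97 at an unadjusted p under 0.05. Pgr was then at -1.06 (adjusted p = 0.0736), Nr3c1 at -0.88 (0.104), and Smarcc1 and Fos changed sign to -1.11 (0.119) and -1.02 (0.224). The forkhead interactions shrank to 0.25 for Foxa1 (limma adjusted p = 0.484), 0.08 for Foxa3 (0.740) and 0.25 for Foxc1 (0.309), and those of Sox4, Sox9 and Nfix to -0.41 (0.180), -0.51 (0.133) and -0.37 (0.374). Of the basal-like nuclei, 470 of 480 fetal ones were in cluster 4 and 1050 of 1056 adult ones in clusters 1 and 8, so stage and cluster cannot be told apart here either. The change of cluster mix among other nuclei and a change within their cell types cannot be told apart in the pooled comparison.

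**Figure D5:**
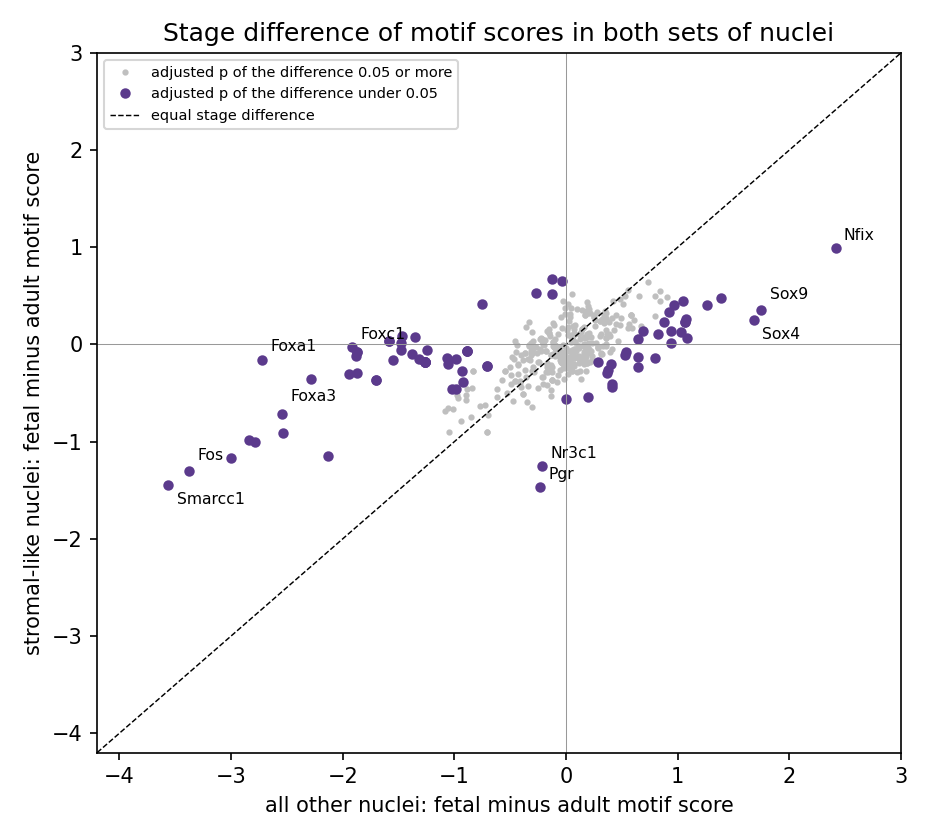
Fetal minus adult motif score in stromal-like nuclei (y axis) against that in all other nuclei (x axis), 1 point per motif. Purple points are the 85 motifs whose stage difference was called as unequal, and the dashed line marks equal differences. Foxa1 lies at -2.72 on the x axis and -0.16 on the y axis, Nfix at 2.42 and 0.99, and Pgr at -0.23 and -1.47.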

How the data were processed

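Single-nucleus ATAC-seq of 4 libraries, 2 per stage, was used. The deposited files list read positions with a barcode, and both ends of a fragment stand as separate reads of 163 to 200 bases. Bowtie2, MACS2, bedtools and the build mm10 are named, per the submitters' processing notes, with no role or order; settings are not given in the sources used here. The authors' deposited table gives a chromVAR deviation score for 427 motifs per nucleus, a cluster number and the count of reads per nucleus, which equalled the reads carrying the barcode in all 7846 nuclei. The authors kept nuclei with at least 2000 reads, per the values, and no doublet caller was run here.

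Reads of cluster 6 were summed per library, since nuclei are not replicates, over gene spans of RefSeq GRCm38.p6 (21883 protein-coding genes and H19, Meg3 and Rian) with 2000 bases on either side and over the authors' deposited regions, by any overlap and without a shift of positions. Features averaging 10 or more reads per library were tested in R 4.3.3 with edgeR 4.0.16 (quasi-likelihood, TMM factors, Benjamini-Hochberg adjusted p under 0.05). Motif means were tested with limma 3.58.1, and DESeq2 1.42.0 was an alternative. Interactions compared the stage difference of cluster 6 with that of the other nuclei of the same libraries. Counting used Python 3.11.15 with pandas 2.3.3, numpy 2.4.6 and scipy 1.17.1, and figures used matplotlib 3.10.9. P-values of edgeR and limma rest on the spread between these libraries, with variances partly shared over all tested features. With 2 libraries per stage, a printed SE is therefore not that feature's own spread alone. For Nr1h5 the SD was 0.0020 in fetal and 0.0024 in adult libraries, against an SE of 0.155. Intervals are over nuclei and cover counting error only. Both ends of a fragment were counted, so reads are not independent and an SE from counting alone is too small. Simulated counts had a dispersion set at 0.1, independent reads and 200 changed features in each run. The gene test on 9812 spans recovered 51% of 4-fold and 93% of 8-fold changes. Among 851 distal and 2960 promoter regions, 97% and 95.5% of 8-fold changes were recovered. The dispersion and the share of changed features were not estimated from the data. These recoveries therefore do not say how many real changes of that size were missed.

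Named gene spans were the 10 largest called changes each way without overlap and with a mean of at least 20 reads. For regions 5 each way, for motifs 8 and for interactions 5 were named, or the 5 with the smallest p where none passed; a fixed list of 30 genes and called members of fixed lists were added. Adgrd1, Irak3, Sdc4, Capzb, Ackr3 and list members described without a call were chosen after their values were seen. Values of some members of the fixed lists are not reported here. The stromal-like nuclei and all lists were chosen with earlier results of these data known.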

Additional observations from a re-analysis of the deposited data

Results flagged for a closer look

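In 10 motifs the fetal minus adult difference of the mean score was called as unequal in stromal-like and in all other nuclei by limma's test of the interaction, and the value of stromal-like less other nuclei is given for each. It was 2.57 for Foxa1, 2.11 for Smarcc1, 2.08 for Fos, 1.93 for Foxa3 and 1.89 for Foxc1. It was -1.43 for Sox4, -1.42 for Nfix, -1.39 for Sox9, -1.24 for Pgr and -1.04 for Nr3c1. These are the largest 5 in each direction of 85 called motifs. How far the grouping of nuclei into clusters sets such differences was not tested. Against basal-like clusters alone none of the 10 passed.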

How the results depend on the processing

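The direction of the 10 gene spans named for their p, the distal region at chr6, the 5 promoter regions and the 12 motifs named for their stage difference was kept under every alternative that gave a value, and the interactions of Smarcc1 and Fos alone changed sign, to -1.11 and -1.02 against basal-like clusters only. Sizes moved: the log2 fold change ranged from -1.69 to -0.35 for Capzb and from -8.52 to -1.45 for Ackr3. It ranged from -2.15 to -0.94 for Sdc4, -2.46 to -0.94 for Adgrd1 and 1.13 to 1.40 for Nav3. Counts of calls moved as well. For gene spans the 5 calls became 19 with DESeq2 (14 higher in fetal nuclei and 5 lower), 34 with no filter on low counts (18 and 16), 13 with no bases on either side of the gene (8 and 5), and 0 with scaling by total reads, a mean of at least 20 reads, nuclei thinned to 2000 reads, the gene start only, or without nuclei richer in epithelial than fibroblast reads, an alternative chosen after seeing the data. Leaving out 1 library gave 6 to 183 calls. For distal regions the 1 call became 0 with DESeq2, total reads, no filter, a mean of at least 20 reads, thinning, without the deepest nuclei and without nuclei richer in epithelial reads, and 0 to 2 with 1 library left out. For promoter regions 1 was called with no filter and 0 to 5 with 1 library left out. For motifs the 25 calls became 13 with medians over nuclei and 1 without the deepest nuclei, and 0 to 8 with 1 library left out. For gene-span interactions 41 were called with a mean of at least 20 reads and 0 to 105 with 1 library left out; for motif interactions 0 were called against basal-like clusters only, and 62 to 82 with 1 library left out. The cause of these changes was not tested, except that stricter filters and left-out libraries test fewer or other features. The difference in the share of stromal-like nuclei, -0.72 percentage points, ranged from -1.05 to -0.39 with 1 library left out.

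The labels do not say that equal replicate numbers pair libraries, so the numbers were not taken as pairs. The correlation of same-numbered deviations was -0.019 for gene spans, 0.024 for distal regions, -0.0028 for promoter regions and -0.049 for motifs. With 2 pairs and few reads per feature, such values cannot decide whether libraries pair. With the replicate block 0 gene spans, 0 distal regions, 0 promoter regions and 35 motifs were called, 28 gene-span interactions with the block in place of the library, and 94 motif interactions.

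Depth limits these comparisons: the median tested span held 19.3 reads per library, and 56 fetal nuclei in 2 libraries carry every fetal value.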
